A study of Mus musculus with 6 samples.

Results

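The 33 genes described here encode proteins that hepatocytes, the main cells of the liver, secrete into plasma or use to break down amino acids. They were taken by name from a fixed list and read from arrays of Renca tumors, which are grown from a mouse renal carcinoma cell line. A transcript cluster, the set of probes for a transcript, was kept where the platform annotation paired it with exactly 1 gene. The genes were chosen by name, and a gene with several clusters was read from the cluster selected on its mean level across the 6 arrays, which is the only measured value in the rule. Of the 33 genes 32 were measured, among 19938 genes in all, and Gc, the vitamin D-binding protein gene, was not analysed here. The list was drawn up with earlier results of these arrays known, so the differences between tumor sites below are a description and carry no support of their own.

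RNA was taken from 6 tumors of BALB/c mice, each tumor from its own animal. In 3 mice the cells had been placed in the outer cortex of the kidney, and in another 3 under the skin. All tumors were excised on day 12 and snap frozen, and no further treatment or genetic change is given in the labels. Whole tumors were used, so that each sample holds Renca cells, host cells of the tumor and any neighbouring tissue excised with it. In such bulk RNA a change in the number of cells of a type and a change in RNA per cell cannot be told apart. The values are log2 RMA intensities, and array medians lay between 7.08 and 7.11.

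Hepatocytes make most plasma proteins, among them albumin, the apolipoproteins and the clotting factors, and they hold the urea cycle and much of the breakdown of aromatic amino acids. Transcription of these genes in liver rests on a set of factors that includes HNF1, HNF4, FOXA and C/EBP proteins. Kidney tubule cells share some of the metabolic genes with hepatocytes but not the main plasma protein genes such as Alb.

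The genes had been grouped as a possible sign of liver transcripts in the intrakidney tumors. The values were high mainly on 1 array, that of intrakidney tumor 3, and the source of the transcripts was not tested. All 32 genes had their highest value of the 6 arrays in that tumor, a position that 12.6% of all genes held. In 26 of the 32 the value lay at least 1 log2 unit above each of the other 5 arrays, against 0.421% of all genes. Intrakidney tumor 3 therefore stood apart for these genes. In 2 of the 32 all intrakidney arrays lay above the subcutaneous arrays, near the share of 8.41% of all genes. Intrakidney tumor 2 lay above all 3 subcutaneous arrays in 19 of the 32, against 33.8% of all genes. The counts and median difference of the 32 genes are given below with and without intrakidney tumor 3.

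For orientation, the 250 bases before the RefSeq transcription start are shown for the 5 genes with the largest excess in intrakidney tumor 3 among those with a single listed start and a window available, since these genes were high together. Sequences run 5′ to 3′ on the strand of the gene in build GRCm38.p6. Capitals mark a match on either strand to GTTAATNAT (HNF1), CAAAGTNCA (HNF4) or TTGCNNAA (C/EBP), and no matches of different motifs overlap in these windows.
Alb (chr5:90460620-90460869, plus strand): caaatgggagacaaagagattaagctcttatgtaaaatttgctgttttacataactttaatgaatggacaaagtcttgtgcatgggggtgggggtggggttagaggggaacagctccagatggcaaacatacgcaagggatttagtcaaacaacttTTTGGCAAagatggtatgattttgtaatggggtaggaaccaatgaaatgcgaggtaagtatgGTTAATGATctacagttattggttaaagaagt
Ahsg (chr16:22891765-22892014, plus strand): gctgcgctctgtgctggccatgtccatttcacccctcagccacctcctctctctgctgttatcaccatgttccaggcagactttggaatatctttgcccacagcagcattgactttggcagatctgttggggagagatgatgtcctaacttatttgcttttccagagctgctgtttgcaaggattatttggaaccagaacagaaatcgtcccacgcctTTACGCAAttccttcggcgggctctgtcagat
Fgg (chr3:83007474-83007723, plus strand): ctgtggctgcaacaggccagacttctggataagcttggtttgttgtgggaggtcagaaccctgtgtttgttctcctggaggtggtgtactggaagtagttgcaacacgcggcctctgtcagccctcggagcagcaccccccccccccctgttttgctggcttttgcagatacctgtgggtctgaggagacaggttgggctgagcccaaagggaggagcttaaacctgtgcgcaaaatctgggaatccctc
Hpx (chr7:105600117-105600366, minus strand): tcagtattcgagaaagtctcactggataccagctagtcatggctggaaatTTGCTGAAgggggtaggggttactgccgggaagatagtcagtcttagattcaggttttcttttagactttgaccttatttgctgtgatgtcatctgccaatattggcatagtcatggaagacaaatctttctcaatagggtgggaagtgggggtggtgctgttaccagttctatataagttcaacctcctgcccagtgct
Fgb (chr3:83049864-83050113, minus strand): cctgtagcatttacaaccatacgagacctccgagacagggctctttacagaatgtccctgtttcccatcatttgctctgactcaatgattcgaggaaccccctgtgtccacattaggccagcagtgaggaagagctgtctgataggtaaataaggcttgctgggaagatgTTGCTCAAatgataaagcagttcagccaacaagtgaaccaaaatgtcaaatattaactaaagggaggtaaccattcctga
The HNF1 letters were present once in the Alb window, starting 32 bases before the start site, and among the genes described also in the Fga window. They were present in 2 of 30 windows of the genes described (6.67%) and in 0.737% of all 32851 windows. The C/EBP letters were present in the windows shown for Alb, Ahsg, Hpx and Fgb and not in that for Fgg. They stood in 11 of the 30 windows (36.7%) and in 9.56% of all windows. The HNF4 letters stood in 0 of the 30 windows and in 1.19% of all. The windows belong to 27 of the 32 genes, some with more than 1, and the genes not matched were Ttr, Apoc3, Plg, Kng1 and Cps1. A match is a description of the letters only.

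Among the carrier and lipoprotein genes, Alb, which encodes the most abundant plasma protein, differed most. In the order of replicates 1, 2 and 3, used for all values below, its log2 value was 5.88, 7.20 and 11.83 in intrakidney and 5.60, 5.50 and 5.55 in subcutaneous tumors. Intrakidney tumor 3 lay 6.28 above the subcutaneous mean, which is 77.6-fold. Intrakidney tumor 2 was also above every subcutaneous tumor, by 1.65 over their mean, and tumor 1 by 0.33, so that the groups did not overlap for Alb. The group means were 8.30 ± 3.12 and 5.55 ± 0.05 (SD, n = 3 per group), with the spread of the intrakidney group set by 1 tumor. The Alb window shown above holds both the HNF1 and the C/EBP letters.

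Ttr, which carries thyroid hormone and binds the retinol carrier, measured 5.34, 5.95 and 8.91 in the intrakidney and 5.42, 5.43 and 5.81 in the subcutaneous tumors, with intrakidney tumor 3 10.2-fold over the subcutaneous mean and tumor 2 at 0.40 above it on the log2 scale. Rbp4, the retinol carrier gene, which adipocytes also express, measured 6.27, 6.26 and 7.59 against 5.77, 5.94 and 6.06. It was the other gene whose groups did not overlap, with tumors 1 and 2 at 0.35 and 0.33 above the subcutaneous mean and tumor 3 at 1.66. Rbp4 thus differed from Ttr in intrakidney tumor 1, where Rbp4 lay above and Ttr below all subcutaneous values. In tumor 2 both genes lay above all subcutaneous values.

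Apoa1 and Apoa2 encode the main proteins of high-density lipoprotein. Apoa1 measured 7.19, 7.31 and 9.49 in the intrakidney and 7.11, 7.14 and 7.33 in the subcutaneous tumors. Apoa2 measured 6.69, 7.27 and 9.88 against 6.79, 6.78 and 7.08. In both, intrakidney tumor 1 lay within or below the range of the subcutaneous tumors and tumor 3 stood 4.91-fold and 7.97-fold over their mean. Apoc3, whose product slows the clearance of triglyceride-rich lipoproteins, measured 5.64, 6.13 and 8.61 against 5.84, 6.03 and 6.03, a 6.26-fold excess in tumor 3. Apob, the structural protein of very-low-density lipoprotein, measured 5.77, 5.59 and 7.49 against 5.57, 5.62 and 5.75. Apoh, a phospholipid-binding plasma protein gene, had the smallest excess of the carrier genes, at 1.48, and its value in intrakidney tumor 1 (5.16) was below all subcutaneous values (5.71, 5.52 and 5.81).

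**Figure D1:**
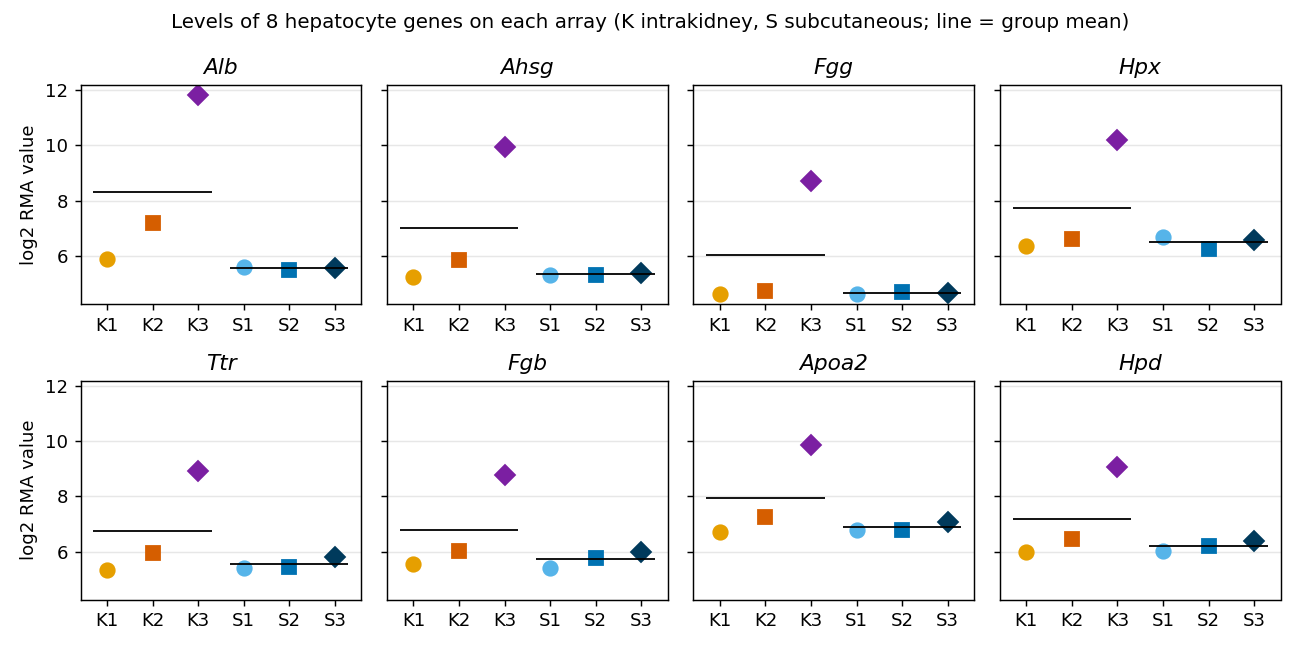
Log2 RMA value (vertical axis) of the 8 hepatocyte genes with the largest excess in intrakidney tumor 3, on each of the 6 arrays (K1 to K3 intrakidney tumors, S1 to S3 subcutaneous tumors), with a line at each group mean. The point of intrakidney tumor 3 stands above the other 5 in every panel, up to 11.83 for Alb, and the intrakidney mean lies between that point and the other tumors.

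The 3 fibrinogen genes lie side by side in the genome but differed in their excess. Fgg, the gamma chain, measured 4.62, 4.73 and 8.70 in the intrakidney and 4.63, 4.68 and 4.67 in the subcutaneous tumors, a 16.4-fold excess in intrakidney tumor 3. Fgb, the beta chain, measured 5.56, 6.01 and 8.77 against 5.42, 5.76 and 5.99, a 8.25-fold excess. Fga, the alpha chain, measured 6.02, 6.21 and 6.63 against 6.06, 6.20 and 6.34, an excess of only 0.43 on the log2 scale. Fga has a further transcript cluster with a lower mean, on which the values were 5.83, 6.12 and 6.96 in the intrakidney and 5.89, 5.62 and 6.08 in the subcutaneous tumors. On both Fga clusters intrakidney tumor 3 was the highest array, and on both the difference was far smaller than for Fgb and Fgg. Differences between probe sets on an array do not compare transcript amounts.

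Of the other clotting genes, Vtn, which encodes the adhesion protein vitronectin, measured 6.25, 6.56 and 8.85 in the intrakidney and 5.82, 6.15 and 6.45 in the subcutaneous tumors. Kng1, the kininogen gene, measured 6.20, 6.57 and 8.64 against 5.97, 6.32 and 6.35. Plg, the precursor of the clot-dissolving enzyme plasmin, measured 5.70, 6.07 and 7.97 against 5.71, 5.87 and 6.20. These 3 genes were 6.55-fold, 5.37-fold and 4.12-fold over the subcutaneous mean in intrakidney tumor 3, and intrakidney tumors 1 and 2 lay within 0.42 of that mean. F2, the prothrombin gene, measured 6.22, 6.67 and 8.08 against 6.14, 6.54 and 6.55. The inhibitor genes Serpinc1 (antithrombin) and Serpind1 (heparin cofactor II) had excesses of 1.26 and 0.95, and Hrg, a heparin-binding glycoprotein gene, one of 1.20. Serpinc1, Serpind1 and Hrg are among the 6 genes that missed a gap of 1 log2 unit over the other 5 arrays, with gaps of 0.92, 0.76 and 0.99.

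Ahsg, the gene of fetuin-A, a plasma inhibitor of calcification, had the next largest excess after Alb. Its value was 5.23, 5.87 and 9.93 in the intrakidney and 5.30, 5.30 and 5.40 in the subcutaneous tumors, a 24.3-fold excess in intrakidney tumor 3. Intrakidney tumor 2 lay 0.54 above the subcutaneous mean and tumor 1 below all subcutaneous values. Ahsg is followed on chromosome 16 by Fetub, Hrg and Kng1, all related cystatin-type genes, with 1 further protein-coding gene between Hrg and Kng1. Fetub, the fetuin-B gene, measured 7.30, 7.22 and 7.59 against 7.31, 7.37 and 6.99, the smallest excess of the 32 at 0.37. The excess in intrakidney tumor 3 therefore ran from 0.37 to 4.60 within this run of neighbouring genes.

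Hpx, whose product binds free heme, measured 6.36, 6.62 and 10.21 in the intrakidney and 6.67, 6.24 and 6.57 in the subcutaneous tumors, a 13.2-fold excess in intrakidney tumor 3 with tumors 1 and 2 inside the subcutaneous range. Ambp, the gene of alpha-1-microglobulin and bikunin, measured 5.89, 6.10 and 8.28 against 5.56, 6.03 and 6.10. Crp, an acute phase protein gene, measured 4.60, 4.70 and 6.64 against 4.84, 5.21 and 4.73, with both other intrakidney tumors below all subcutaneous values. The heavy chain genes Itih1 to Itih4 were again unequal. Itih4 measured 6.73, 7.04 and 8.89 against 6.38, 6.62 and 6.87, while the excess in tumor 3 was 1.47 for Itih3, 1.22 for Itih2 and 0.48 for Itih1. Itih4, Itih3 and Itih1 are direct neighbours on chromosome 14.

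The 5 enzyme genes all lay at least 1 log2 unit above the other arrays in intrakidney tumor 3. Hpd, which acts in tyrosine breakdown, measured 6.01, 6.44 and 9.05 in the intrakidney and 6.01, 6.21 and 6.40 in the subcutaneous tumors, a 7.17-fold excess. Cps1, which starts the urea cycle, measured 5.68, 6.19 and 8.31 against 5.39, 5.74 and 6.11. Tat, which starts tyrosine breakdown, measured 6.07, 6.03 and 8.16 against 6.06, 6.03 and 6.04, so that only tumor 3 left the narrow range of the others. Tdo2, which opens the tryptophan ring, measured 4.36, 4.55 and 6.24 against 4.52, 4.49 and 4.33. Hgd, a tyrosine breakdown gene that kidney tubule also expresses, measured 5.59, 6.26 and 7.33 against 5.68, 5.77 and 5.91, and intrakidney tumor 2 lay 0.47 above the subcutaneous mean.

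**Figure D2:**
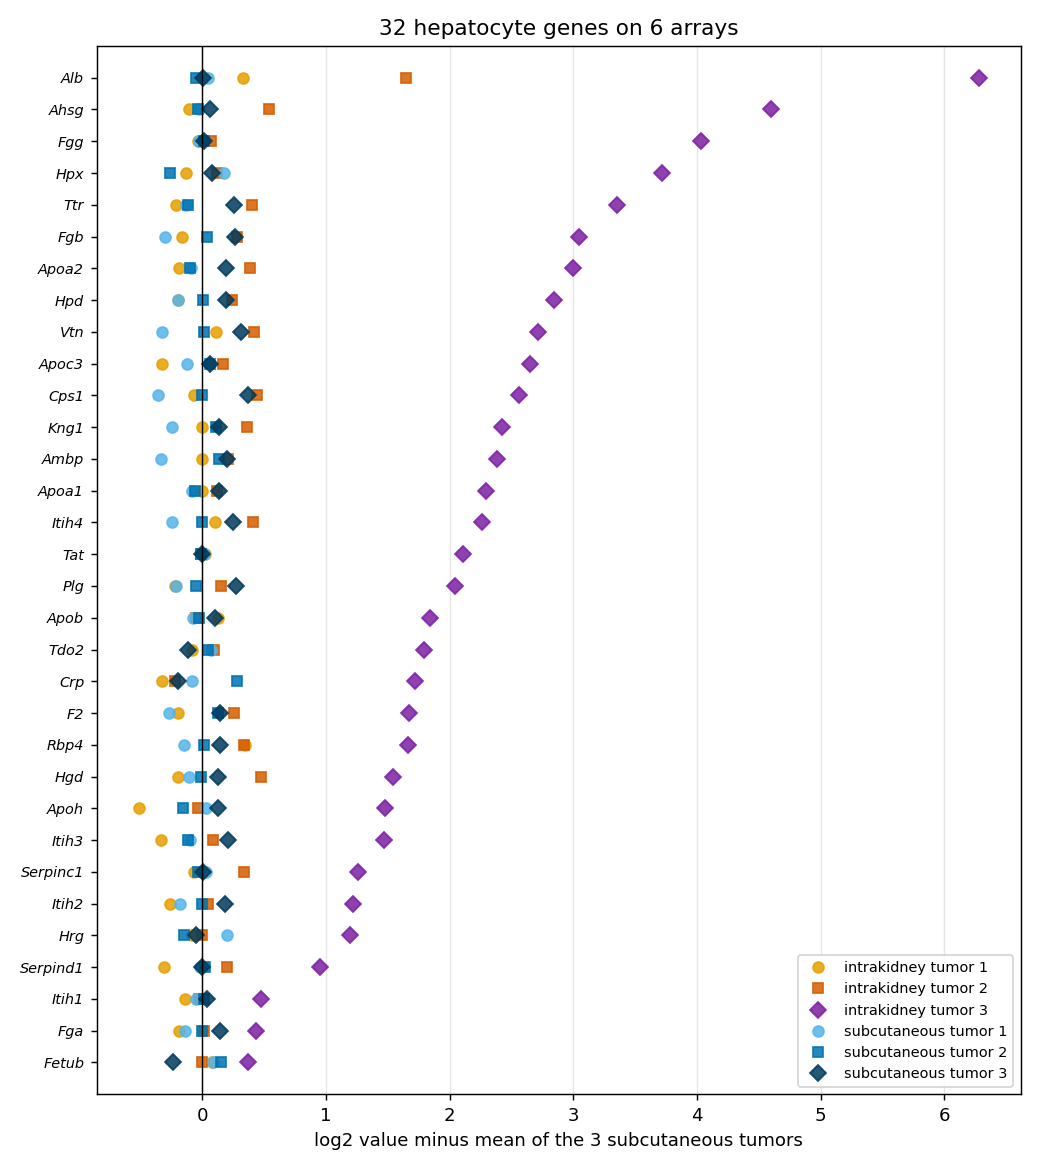
Log2 value of each of the 32 hepatocyte genes on each array, minus the mean of the 3 subcutaneous tumors (horizontal axis), with genes ordered by the excess in intrakidney tumor 3. The points of intrakidney tumor 3 run from 0.37 for Fetub to 6.28 for Alb, while the other 5 tumors stay within 0.54 of 0 except for Alb in intrakidney tumor 2 (1.65).

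Over the 32 genes, the median difference from the subcutaneous mean was -0.12, 0.18 and 2.08 in intrakidney tumors 1, 2 and 3. The single subcutaneous tumors had medians between -0.09 and 0.13 on the same scale. Intrakidney tumor 1 lay above all 3 subcutaneous tumors in 4 of the 32 genes, against 27.2% of all genes, and tumor 2 in 19 of the 32, against 33.8% of all genes. The role groups had median excesses in intrakidney tumor 3 of 2.47 for carriers and lipoproteins, 1.86 for clotting genes, 1.72 for inhibitors, fetuins and acute phase genes, and 2.11 for enzymes. Their ranges overlap widely, since Alb and Apoh fall in one group and Ahsg and Fetub in another.

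A limma fit over all 19938 genes, which compares group means, called 0 of the 32 at an adjusted p of 0.05 (Benjamini-Hochberg), against 0.231% of all genes (0.13% in the upward and 0.1% in the downward direction). Their adjusted p ran from 0.591 to 0.951, and only Rbp4 had an unadjusted p under 0.05, against 8.43% of all genes. All 32 log2 fold changes, intrakidney minus subcutaneous, were positive, with a median of 0.74 against -0.006 over all genes. Without intrakidney tumor 3 that median was 0.03, 21 of the 32 were positive, and again 0 passed, against 0.166% of all genes. At an unadjusted p of 0.05, 2 of the 32 passed without it, against 6.61% of all genes. The largest value left without that tumor was that of Alb, at 0.99 (limma, adjusted p = 0.624). The group comparison thus holds a difference that 1 tumor of 3 carries.

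On the linear scale the excess of intrakidney tumor 2 over the mean of the subcutaneous tumors can be given as a share of the excess in tumor 3. It was taken for the 28 genes with an excess in tumor 3 of at least 1 log2 unit, a limit that 0.802% of all genes reached. These 28 were thus kept by their level in the tumor that the share is divided by, and the shares hold for them only. The median share was 2.81%, with a range of -6.74% for Crp to 20.2% for Hgd. For Alb it was 2.79%, although the log2 difference of Alb in tumor 2 was the largest of all 32. In tumor 1 the median share was -1.63%, with a range of -17.0% for Apoh to 12.4% for Rbp4.

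Kidney tubule genes that hepatocytes lack were read on the same arrays. Of 28 listed, 26 were measured, with a median difference from the subcutaneous mean of -0.15, 0.28 and 0.46 in intrakidney tumors 1, 2 and 3. Of the 26, 8 had an excess of at least 1 log2 unit in tumor 3, against 0.802% of all genes. The shares below hold for these 8 only, which were kept by their level in the tumor that the share is divided by. For these 8 the share of tumor 2 was 33.0% in the median (16.9% to 60.9%), and that of tumor 1 was -3.53%. Slc13a1, the sulfate transporter gene of proximal tubule, measured 4.42, 6.14 and 8.05 in the intrakidney and 4.45, 4.37 and 4.73 in the subcutaneous tumors. Umod, the uromodulin gene of the loop of Henle, measured 5.87, 6.72 and 8.34 against 5.58, 6.04 and 6.11. Slc5a12, Slc3a1 and Miox, also tubule genes, had excesses in tumor 3 of 1.80, 1.53 and 1.38. Averaged over the tubule list, the level was 6.20, 6.71 and 7.11 in the intrakidney tumors, against 6.27 to 6.43 under the skin. With limma 0 of the 26 passed (0.231% of all genes) and 2 had an unadjusted p under 0.05 (8.43% of all genes). The median log2 fold change was 0.21, or 0.14 without intrakidney tumor 3. Of the 26 genes 18 had their highest value in intrakidney tumor 3 (12.6% of all genes) and 3 in tumor 2 (22.1% of all genes). Cdh16 was high at both sites, at 11.66, 11.81 and 11.46 against 11.51, 11.55 and 11.60. The mean level of the tubule list and the hepatocyte genes thus both peaked in intrakidney tumor 3, and the part of one in the other was not tested.

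**Figure D3:**
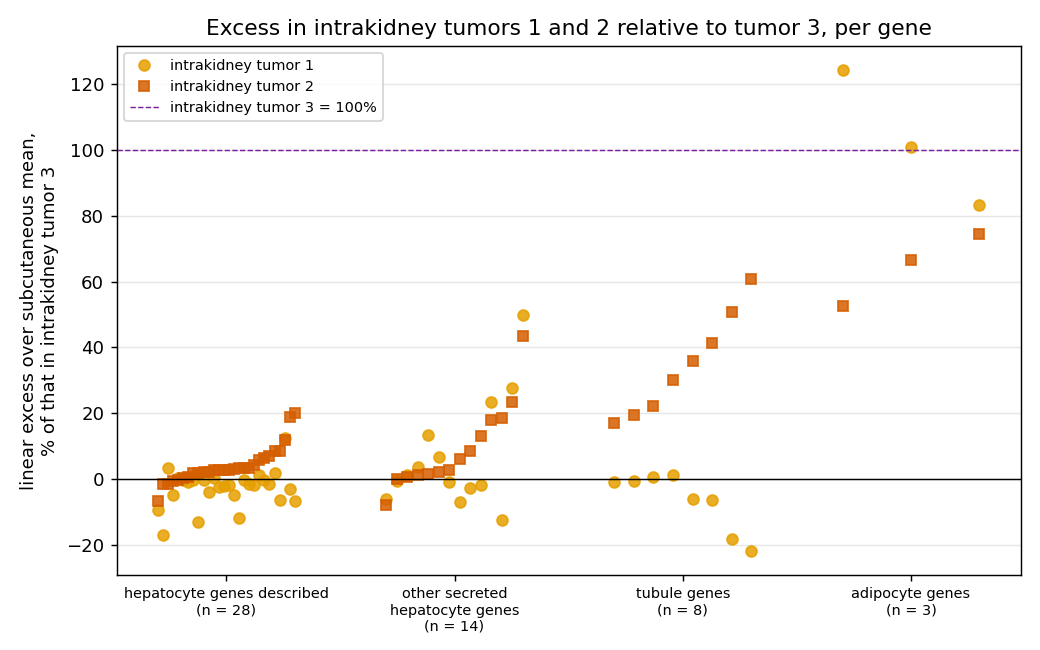
Linear excess over the subcutaneous mean in intrakidney tumors 1 and 2 (vertical axis, in percent of the excess in intrakidney tumor 3), for each gene with an excess of at least 1 log2 unit in tumor 3, by gene list. For the 28 hepatocyte genes described the points of tumor 2 stay at 20.2% or less. For the 14 other secreted hepatocyte genes they run from -7.90% to 43.4%. For the 8 tubule genes they run from 16.9% to 60.9%, so that these lists overlap. For the 3 adipocyte genes they reach 74.6%.

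Hepatocyte genes outside the 32 were read from 2 further lists. Of 62 other secreted hepatocyte genes 51 were measured, and 35 had their highest value in intrakidney tumor 3. Of 62 other hepatocyte enzyme and transporter genes 56 were measured, and 38 had their highest value there. Of all genes 12.6% had their highest value in that tumor. In each list 0 genes passed the limma threshold in either direction, against 0.231% of all genes. In limma 7 and 5 had an unadjusted p under 0.05, against 8.43% of all genes. The median log2 fold changes were 0.19 and 0.22, and 0.03 in each without intrakidney tumor 3. Of these 107 genes 25 lay at least 1 log2 unit above all other arrays in tumor 3, the limit that 0.421% of all genes met.

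Saa2, an acute phase protein gene, measured 4.97, 5.15 and 9.59 in the intrakidney and 5.05, 5.34 and 5.08 in the subcutaneous tumors. Serpina1c, an alpha-1-antitrypsin gene with near-identical copies that may share its probes, measured 4.59, 4.36 and 9.29 against 3.98 to 4.37. Serpina1d, of the same family, was not raised in tumor 3, at 5.15, 5.18 and 4.72 against 4.49, 4.86 and 5.13. Fgl1, a secreted fibrinogen-like protein gene, measured 5.37, 5.68 and 8.34 against 5.31, 5.43 and 5.60. In Saa2, Serpina1c and Fgl1, intrakidney tumor 3 was the highest array, 4.44, 5.17 and 2.89 above the subcutaneous mean. Tumor 2 lay -0.009, 0.25 and 0.23 from that mean, against 1.65 for Alb and 0.54 for Ahsg. Among the enzymes, Bhmt, which remethylates homocysteine, measured 6.41, 6.93 and 9.37 against 6.37, 6.62 and 6.76, and Mat1a, which makes the methyl donor S-adenosylmethionine, measured 5.51, 5.70 and 8.78 against 5.82, 5.91 and 5.66. Ces1c, a carboxylesterase gene, had an excess of 2.23 in tumor 3.

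Some genes that hepatocytes express lay higher in each of the 3 intrakidney tumors than in any subcutaneous tumor. In the 2 further hepatocyte lists this held for 17 of 107 genes, against 8.41% of all genes. In the list shared with kidney tubule it held for 2 of 22. Hp, the haptoglobin gene, measured 9.05, 8.89 and 10.61 in the intrakidney and 6.81, 7.14 and 7.31 in the subcutaneous tumors. Its difference was 2.43 (limma, adjusted p = 0.103) with all arrays and 1.88 (limma, adjusted p = 0.0138) without intrakidney tumor 3. Trf, the transferrin gene, measured 10.24, 10.13 and 11.31 against 9.48, 9.73 and 9.73, Arg1, an arginase that macrophages also make, 10.32, 8.99 and 10.36 against 7.92, 7.82 and 7.91, and Cyp2e1, a cytochrome of liver, kidney and fat, 8.36, 7.41 and 10.02 against 6.04, 5.87 and 6.24. Inmt, a methyltransferase gene, was highest in tumor 2, at 9.59, 10.18 and 9.75 against 8.89, 8.85 and 8.92. None of these 5 passed the threshold with all arrays. Of 22 measured genes that hepatocytes and kidney tubule share, Cyp2e1 among them, 0 passed in limma (0.231% of all genes). An unadjusted p under 0.05 in limma was found for 2 of the 22 (8.43% of all genes). Their median log2 fold change was 0.11, or 0.05 without intrakidney tumor 3. Fbp1 and Pck1 are both genes of glucose synthesis. Fbp1 measured 5.96, 6.37 and 7.57 against 5.84, 6.07 and 5.80, and Pck1 6.99, 7.51 and 7.93 against 6.84, 6.91 and 6.75, with intrakidney tumor 3 the highest array in both.

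The adipocyte genes were divided in another way over the arrays. Car3, a carbonic anhydrase abundant in fat, measured 10.24, 9.71 and 10.23 in the intrakidney and 6.55, 7.11 and 6.31 in the subcutaneous tumors, and Fabp4, a fatty acid carrier gene, 8.89, 8.77 and 9.10 against 7.08, 6.92 and 6.53. Both were high in all 3 intrakidney tumors, with the lowest of the 3 values in tumor 2. Car3, Fabp4 and Cidec made up the 3 of 9 measured adipocyte genes that passed over all genes, against 0.231% of all genes. Without intrakidney tumor 3 Car3 and Fabp4 passed (limma, adjusted p = 0.0126 and 0.0138) and Cidec did not (0.0989). The Cidec log2 fold change also missed the threshold on leaving out each of the other 5 tumors in turn, the Car3 log2 fold change without subcutaneous tumor 1 (limma, adjusted p = 0.0623) and the Fabp4 log2 fold change without subcutaneous tumor 2 (limma, adjusted p = 0.0587). The median difference from the subcutaneous mean over the adipocyte list lay between 0.50 and 0.58 in the 3 intrakidney tumors. For 5 of the 9 genes all intrakidney values lay above the subcutaneous ones, against 8.41% of all genes. The groups overlapped for Plin1, Lipe, Lep and Slc2a4, with log2 fold changes of 0.15, 0.06, 0.03 and -0.27. Of the red blood cell genes 2 were measured. In limma 0 passed (0.231% of all genes) and 1 had an unadjusted p under 0.05 (8.43% of all genes). Alas2, the heme synthesis gene of that lineage, measured 7.09, 6.89 and 6.82 against 6.50, 6.30 and 6.43 and was highest in intrakidney tumor 1.

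Of the liver-enriched transcription factor genes, 7 of the 15 measured had their highest value in intrakidney tumor 3 (12.6% of all genes) and 9 lay above all subcutaneous tumors there (24.7% of all genes). None of the 15 reached an excess of 1 log2 unit in that tumor. Of 17 listed, 15 were measured. In limma 0 passed in either direction (0.231% of all genes) and 0 had an unadjusted p under 0.05 (8.43% of all genes). For the 15 genes the median difference from the subcutaneous mean in intrakidney tumor 3 was 0.12. Their median log2 fold change was 0.05, or -0.008 without that tumor. Hnf4a, which kidney tubule also expresses, measured 6.88, 7.20 and 7.42 in the intrakidney and 6.98, 6.86 and 7.30 in the subcutaneous tumors, so that the groups overlapped. Foxa1, Nr0b2, Nr5a2, Cebpa and Creb3l3 had the largest log2 fold changes of the list, from -0.24 to 0.23.

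Genes of other tissues near the kidney were read as further markers. Of all genes 12.6% had their highest value in intrakidney tumor 3. Of the 11 measured pancreas acinar genes 0 did, and of the 9 adrenal cortex genes 1 did, with median differences there of -0.0009 and 0.01. Of 11 small intestine genes 3 had their highest value there. Only Fabp1, a fatty acid carrier that hepatocytes also express, lay at least 1 log2 unit above the other arrays. It measured 4.17, 4.51 and 7.33 in the intrakidney and 3.94, 4.04 and 4.04 in the subcutaneous tumors. Sis and Lct, defining enzymes of intestinal epithelium, were not higher in tumor 3 than in every subcutaneous tumor. Vil1 and Anpep were, at 6.92 and 8.18 in tumor 3 against at most 6.78 and 8.17 under the skin. The groups did not overlap for Vil1 and overlapped for Anpep. Of 14 measured genes of cholangiocytes, stellate cells and Kupffer cells 5 had their highest value in intrakidney tumor 3. In limma 1 passed (0.231% of all genes) and 3 had an unadjusted p under 0.05 (8.43% of all genes). The gene that passed was Vsig4, a macrophage complement receptor gene, which rose by 1.37 ± 0.16 (SE, limma, adjusted p = 0.0291) and was highest in tumor 1, at 6.65, 6.44 and 6.09 against 4.86, 5.26 and 4.96. The Vsig4 log2 fold change also passed without intrakidney tumor 3 (limma, adjusted p = 0.0240) but not on leaving out any of the other 5 tumors (0.0635 to 0.160). Cd5l and Timd4, genes of resident macrophages, were the others with an unadjusted p under 0.05, and for both the groups did not overlap. Cd5l measured 6.24, 5.38 and 5.95 against 4.84, 4.93 and 4.80 (limma, adjusted p = 0.152), and Timd4 6.32, 6.18 and 6.48 against 5.93, 6.07 and 6.05 (limma, adjusted p = 0.408). Clec4f, a defining gene of Kupffer cells, measured 6.09, 6.63 and 6.35 against 6.31, 6.41 and 6.56, and the groups overlapped.

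**Figure D4:**
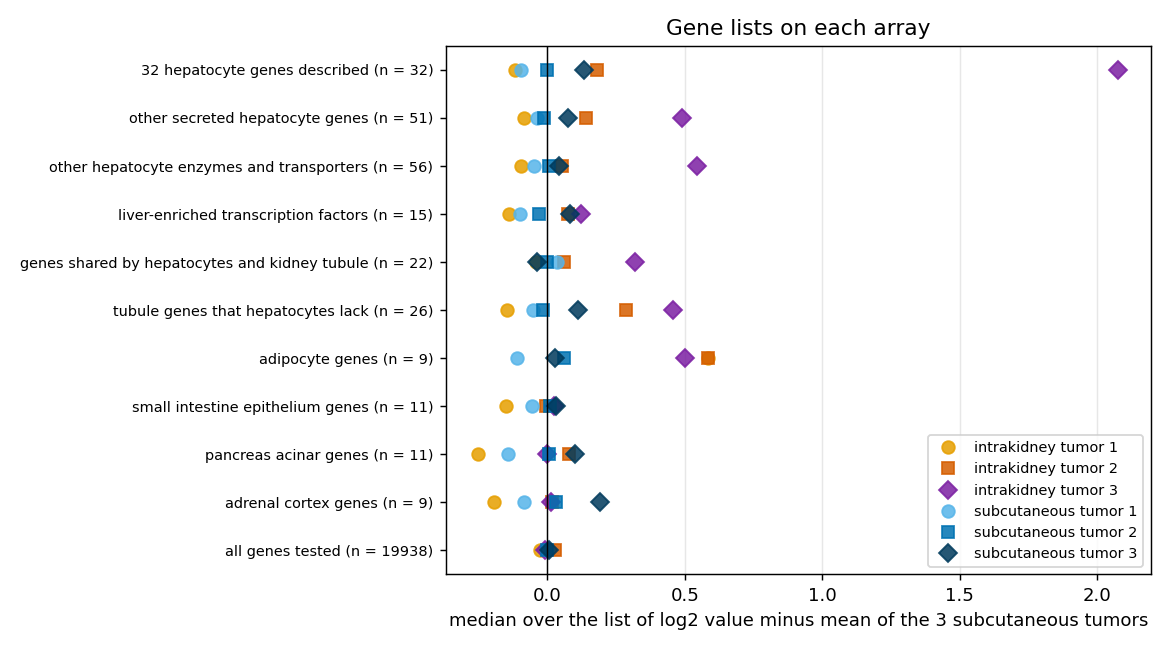
Median over each gene list of the log2 value minus the mean of the 3 subcutaneous tumors (horizontal axis), on each of the 6 arrays. The 32 hepatocyte genes stand at 2.08 in intrakidney tumor 3 and the other hepatocyte lists at 0.49 and 0.54, while tubule genes are also high in tumor 2 (0.28) and adipocyte genes in all 3 intrakidney tumors (0.50 to 0.58).

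Across all 19938 genes, 84 lay at least 1 log2 unit above the other 5 arrays in intrakidney tumor 3. The same count was 0 for intrakidney tumor 1, 1 for intrakidney tumor 2 and 0 for each subcutaneous tumor. Of the 84 genes 26 were among the 32 described and 25 in the other hepatocyte lists, so that 31.0% of the 84 belonged to the 32. The 10 genes outside the 32 whose pattern was most like their mean were Fgl1, Bhmt, Cyp2c29, Elovl2, Cyp2b9, Fabp1, Cyp3a11, Cyp2d26, Dpyd and Cyp2c70. Pearson r over the 6 arrays was 0.999 for Fgl1 and 0.993 for Cyp2c70, among 311 genes with a range of at least 1 log2 unit. With 1 array far above the rest these r values mostly restate that tumor 3 is high, and 61 of the 311 genes reached 0.95. Cyp2c29, Cyp2b9, Cyp3a11, Cyp2d26 and Cyp2c70 are cytochrome P450 genes, a family of drug and steroid metabolism.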

How the data were processed

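Arrays were run on total RNA of 6 Renca tumors. Per the submitters' processing notes the authors made the deposited log2 values with RMA and affy, with no version, build or probe set definition named in any source used here. RMA summarises probes per transcript cluster and compresses differences of dim genes. The log2 scale was read from the values. With 3 arrays per group precision is limited.

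Of 35512 clusters 21789 were paired with exactly 1 gene by the platform annotation, 1621 with several and 12102 were not named. One cluster was kept per gene, and no filter on low values was set. The Entrez identifiers of all 32 measured members gave the same symbol in a RefSeq gene table of GRCm38.p6. The 2 tumor sites were compared in limma (3.58.1, R 4.3.3) with lmFit and eBayes, two-sided, with Benjamini-Hochberg adjustment over 19938 genes and a threshold of 0.05. The fit was tested on simulated data. Replicates are separate mice, and the labels name no batch. Promoter windows come from RefSeq.

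The members and lists were chosen with earlier results of these data known. Named were every member, up to 5 genes per further list with the largest absolute fold change, and the 10 genes most like the members' mean. Hnf4a, Clec4f, Anpep, Cdh16, Serpina1d, Plin1, Lipe, Lep and Slc2a4 were chosen after their values were seen. Other settings were quantile normalization, median centring, leaving out dim genes, an offset, averaging clusters, an intensity trend with robust prior, the replicate number as a block, and leaving out each array.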

Additional observations from a re-analysis of the deposited data

How the results depend on the processing

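Under all 13 alternatives 0 of the 32 genes passed in limma, with a smallest adjusted p of 0.296 (without intrakidney tumor 1). In limma 14 had an unadjusted p under 0.05 without intrakidney tumor 1, and 0 to 5 under the other alternatives. The share of all genes at that limit was taken only without intrakidney tumor 3, at 6.61%, so the 14 cannot be set against it. Their median log2 fold change was 0.65 with an offset of 16, 0.93 without dim genes (7 members left), and 0.03 to 1.07 on leaving out 1 array. The lowest is without intrakidney tumor 3. All genes past the threshold numbered 101 without dim genes, 74 with an offset, 138 under a robust prior with an intensity trend, and 2 (without subcutaneous tumor 1) to 33 on leaving out 1 array. Of the other hepatocyte lists 0 genes passed with all arrays, 1 with median centring or an offset, 2 without dim genes or with the trend, and 0 to 2 on leaving out 1 array. The replicate block gave 0 genes in all past the threshold. In limma 5 of the 32 had an unadjusted p under 0.05 with that block, and the share of all genes there was not taken. Deviations of same-numbered tumors correlated at 0.37, -0.16 and 0.10, and not every tumor correlated best with its own number, so the numbers were not taken to pair the tumors. Of 1032 values of named genes under alternatives 17 passed newly and 17 no longer. A reversal of sign was scored only for genes that passed with all arrays, and 0 of these reversed. The 32 genes were not scored for it, and without intrakidney tumor 3 only 21 of their log2 fold changes stayed positive. Dim genes limit the size of the folds.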

Other observations

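Of the 84 genes at least 1 log2 unit above the other 5 arrays in intrakidney tumor 3, 27 were in none of the lists, and those named here were chosen after their values were seen. Several are liver genes: Pzp, a plasma protease inhibitor gene, measured 9.09 in that tumor and 5.66 to 6.11 in the others, Apcs, the serum amyloid P gene, 6.92 against 5.01 to 5.46, and Uox, the urate oxidase gene, 6.47 against 4.52 to 5.16. Others were also high in intrakidney tumor 2. Cltrn, a proximal tubule gene that the tubule list holds under its older symbol, measured 4.53, 6.39 and 7.45 in intrakidney tumors 1, 2 and 3, against 4.72 to 4.93 under the skin. Cyp2j5, a cytochrome gene of tubule and liver, measured 4.55, 5.83 and 7.48, and Slc27a2, which activates very long-chain fatty acids in both organs, 5.53, 6.72 and 8.68, against subcutaneous values of at most 4.92 and 5.85.

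Havcr1, a gene of injured proximal tubule, measured 5.90, 6.17 and 7.33 in the same order, against 5.22 to 5.72 under the skin. The neutrophil gene S100a9 measured 6.54, 6.81 and 7.87 against 6.28 to 6.50, and Slfn4, a gene of activated myeloid cells, 8.39, 8.43 and 10.18 against 7.97 to 8.31. Intrakidney tumor 3 had the highest values of these 3 genes. None passed the limma comparison of the 2 sites over all genes, with adjusted p of 0.483, 0.633 and 0.700 (unadjusted 0.0242, 0.0640 and 0.102).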
